A study of Mus musculus with 13 samples.

Results

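Growth-arrested and still growing Cdkn2a/Braf melanocytes were compared across 19937 genes on 4 of the 13 Affymetrix arrays of a mouse series on Braf-driven melanocyte growth arrest and melanoma. The members were chosen by their labels. The 2 arrays of the day 50 group hold melanocytes of genotype Cdkn2a/Braf, labelled as taken after growth arrest, and the 2 arrays of the day 19 group hold the same genotype before it. Another sorted group of 2 arrays, Cdkn2a only melanocytes at day 19 with wild-type Braf, served as a reference level and did not enter the contrast. All 3 groups share the Cdkn2a alteration and were purified by flow cytometry from in vivo material, and the arrays of a group are called biological replicates. The exact alleles, the promoter or Cre that drives them, the strain and any pooling of mice in these groups are not given in the sources used here. Day and growth state change together, so age and arrest cannot be told apart. Levels are log2(intensity + 1), differences are day 50 minus day 19 on that scale with their standard error (SE), and a gene is said to rise or fall only where limma's Benjamini-Hochberg adjusted p over all genes was under 0.05. The SE and p rest on 1 spread per gene that is shared by the 6 groups of all 13 arrays. They do not measure the spread of the 4 compared arrays alone. Where the 2 day 50 arrays of a gene lie far apart, its SE and p can be too small. A difference on this scale understates the change of dim genes.

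Braf is a kinase that activates MEK and ERK, and an oncogenic Braf allele drives melanocytes to divide and later to stop, as in a human mole. Cdkn2a encodes an inhibitor of the cyclin D kinases and a stabiliser of p53, and all 3 sorted groups carry an alteration of this gene. The title of the series places mTORC1 at the centre of the question. mTORC1 is a kinase complex on the lysosome surface that promotes protein synthesis and growth when amino acids and insulin-like signals are plentiful.

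Across all genes 2211 rose and 2884 fell, which is 25.6% of the genes tested in either direction, 11.1% higher and 14.5% lower. The median difference of all genes was 0.17. With each array centred on its median, 1034 genes rose and 3263 fell, so 24.1% rather than 43.4% of the calls were increases. In all, 9160 genes were higher without overlap between the arrays and 4935 were lower without overlap, far more than the calls. Without day 19 replicate 1 the calls dropped to 363 higher and 1472 lower, and without day 19 replicate 2 to 515 and 1717. In a fit of the 4 compared arrays alone, 39 genes were higher and 251 lower. A core of 219 genes, 21 higher and 198 lower, kept its call and direction in all 17 alternative fits with a difference of at least 1 and no overlap. Genes named below as rising or falling kept their call without each of the 4 arrays in turn unless stated. Each of these fits leaves 1 array in a group. Without a day 50 array, the spread between the 2 day 50 arrays no longer enters the SE. A call kept there is therefore a weak check of genes whose day 50 arrays lie far apart.

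**Figure D1:**
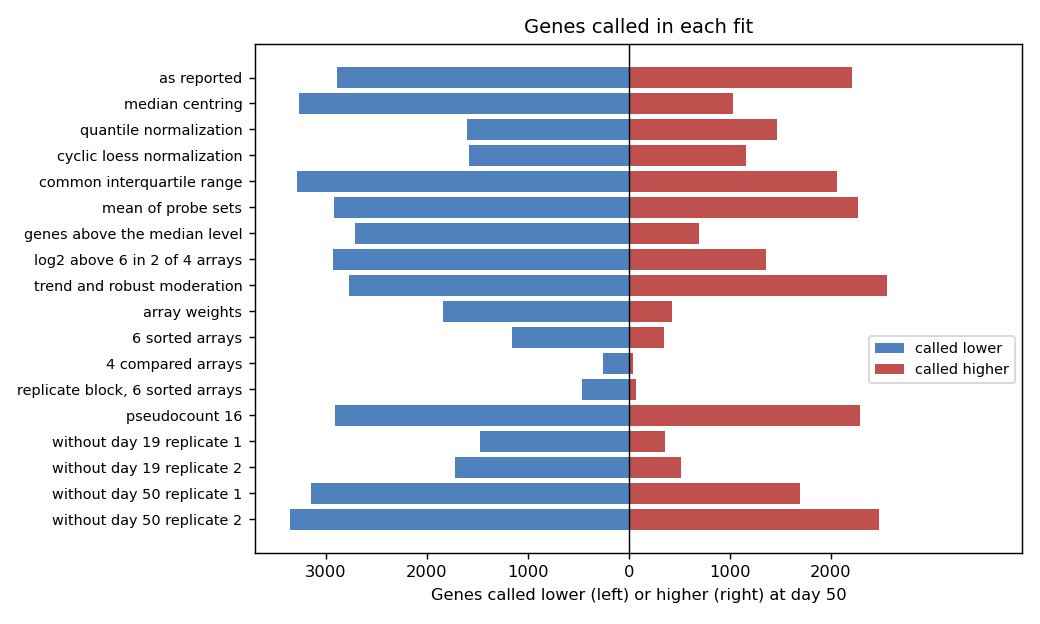
Number of genes called lower (bars to the left) and higher (bars to the right) at day 50 in the reported fit and in 17 alternatives. The reported fit called 2884 lower and 2211 higher, and the fit of the 4 compared arrays called 251 and 39.

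The change depended on how bright a gene was in melanocytes. Genes were put in 4 equal bands by their level on the Cdkn2a only arrays, which take no part in the contrast. In the brightest band, at levels from 7.81 to 13.27, 42.2% of the genes fell and 2.27% rose, with a median difference of -0.63. In the dimmest band, at 2.51 to 5.30, 0.622% fell and 14.2% rose, with a median of 0.30. After quantile normalization these medians were -0.22 and 0.04. Levels were compressed at day 50, with interquartile ranges of 1.94 and 1.93 (log2) against 2.58 and 2.54 at day 19. The day 50 arrays also differed more from each other, with an SD of their difference across genes of 0.703 against 0.292. Shares of list members in the brightest band are therefore set beside its 42.2%, and shares of whole lists beside the 14.5% lower and 11.1% higher of all genes. Increases of lists were not compared band by band. In the second dimmest band 17.998% of the genes rose, and in the band above it 9.89%, so 11.1% is a low reference for lists of dim genes. The part of this compression in the results was not tested.

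**Figure D2:**
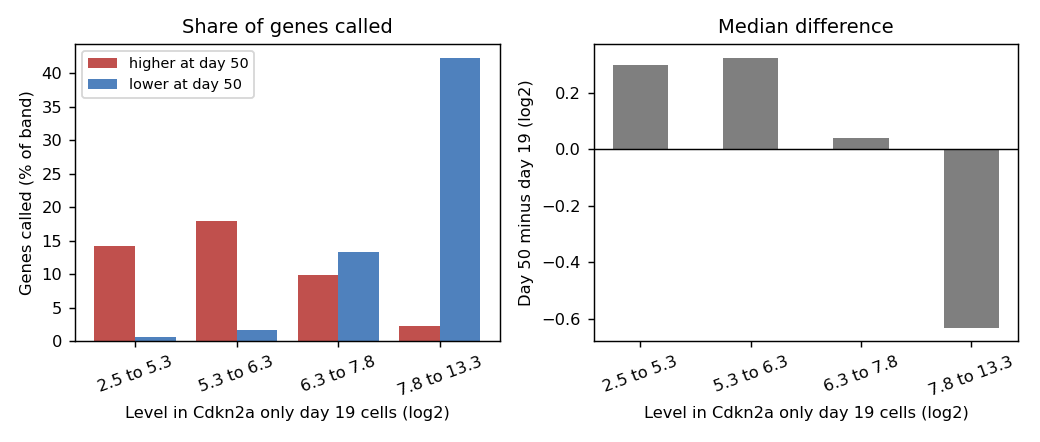
Left, percent of genes called higher or lower at day 50 in each of 4 equal bands of level in Cdkn2a only day 19 cells. Right, median difference (day 50 minus day 19, log2) per band, which goes from 0.30 in the dimmest to -0.63 in the brightest band.

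The sorted cells carried melanocyte genes in every group, and mean levels of several marker lists of other skin cells were higher on the day 50 arrays. The mean of 18 melanocyte markers was 11.40 and 11.17 on the day 19 arrays, 9.06 and 9.82 at day 50 and 11.58 and 11.50 in Cdkn2a only cells. Tyrp1 and Dct, enzymes of melanin synthesis, stayed at the top of the range, with day 50 levels of 12.71 and 12.92 and of 12.69 and 13.05. The mean of 16 fibroblast markers was 8.18 and 7.85 at day 50 against 6.46 and 6.75 at day 19. For 14 endothelial markers it was 7.97 and 6.98 against 6.30 and 6.24, and for 18 keratinocyte markers 9.09 and 8.75 against 7.59 and 7.37. For 12 Schwann cell markers, a list that shares Sox10 with melanocytes, it was 8.52 and 8.01 against 7.53 and 7.65. Of these lists 11 fibroblast (68.8%), 9 endothelial (64.3%), 5 Schwann cell (41.7%) and 6 keratinocyte genes (33.3%) rose, beside 11.1% of all genes. The Schwann cell count was 1 without either day 19 array and 3 without day 50 replicate 1. Of the fibroblast markers Dpt fell by 2.58, a call that ended without day 19 replicate 2 or day 50 replicate 2. Of the Schwann cell markers Erbb3 fell by 1.64, a call that ended without either day 19 array and without day 50 replicate 2. Krt1, a differentiated keratinocyte keratin, read 6.32 and 6.71 at day 19 and 10.12 and 9.59 at day 50, a difference of 3.34 (SE 1.17, limma adjusted p = 0.0589). The mean of 17 hair shaft markers was lower at day 50, at 6.43 and 6.41 against 7.38 and 6.94 at day 19. In sorted bulk cells, fewer cells of a type and less RNA per cell cannot be told apart. The part of these other cells in the results below was not tested. The sexes differed too: Xist was high on both day 50 arrays (9.57 and 9.95) and on day 19 replicate 1 (10.12), and at 4.82 on day 19 replicate 2, where Eif2s3y of the Y chromosome read 8.15.

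**Figure D3:**
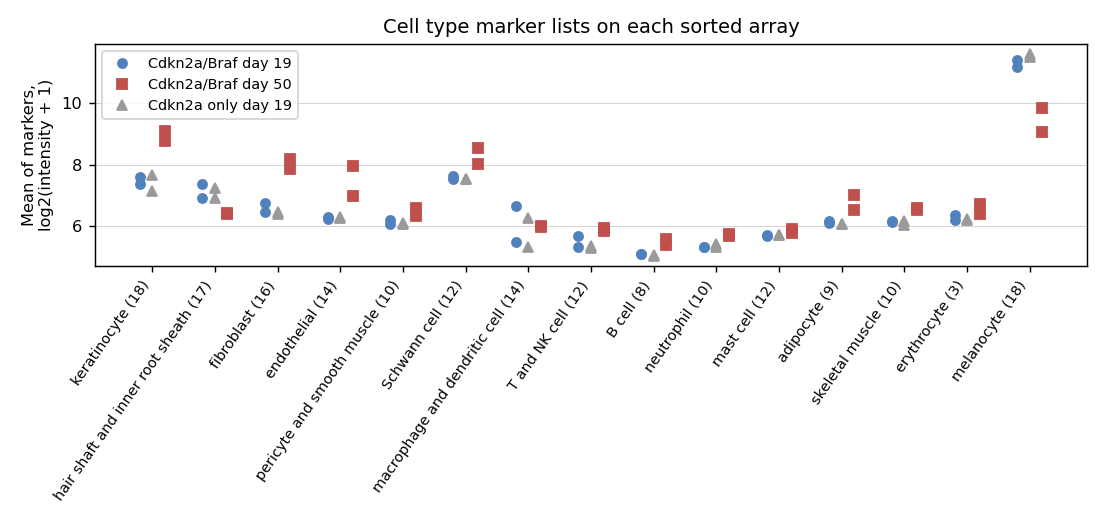
Mean log2(intensity + 1) of 15 cell type marker lists on each of the 6 sorted arrays (2 points per group, number of markers measured in brackets). The melanocyte list is lowest and the fibroblast, endothelial and keratinocyte lists are highest on the day 50 arrays.

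Few cell cycle transcripts passed the test between growing and arrested cells. Of 27 mitosis genes 3 fell and 0 rose, with a list median of -0.26, and of 29 DNA replication genes 4 fell and 0 rose, with a median of -0.31. These shares of 11.1% and 13.8% are near or below the 14.5% of all genes, but most members lie below the brightest band. Of the 4 mitosis and 7 replication genes in that band 50% and 28.6% fell, against its 42.2%. In the bands below it 13.3%, 1.75% and 0.622% of the genes fell. Both list medians lie below the 0.17 of all genes. Mad2l1, a spindle checkpoint protein, read 8.38 and 8.41 at day 19 and 4.85 and 6.01 at day 50. It fell by 2.96 (SE 0.49, limma adjusted p = 0.00268). Mki67, the proliferation antigen Ki-67, was at 6.64 and 6.58 against 6.93 and 6.51, levels that overlap, with a difference of 0.11 (SE 0.41, limma adjusted p = 0.845). Cdk1, the mitotic kinase, read 7.41 and 6.96 against 6.42 and 6.42, lower without overlap at -0.76 (SE 0.41, limma adjusted p = 0.171), which missed the threshold. For Top2a, a topoisomerase of dividing cells, the difference was -0.47 (SE 0.45, limma adjusted p = 0.422). The mitosis count was 1 without either day 19 array, and the replication count was 0 without either.

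Among the genes that set entry into the cycle, 7 of 26 D cyclin, E2F and RB family genes fell and 1 rose. The 26.9% lower stands against 14.5% of all genes, but of the 11 members in the brightest band 36.4% fell, below its 42.2%. Ccnd2, cyclin D2, read 10.94 and 10.93 at day 19, 9.01 and 8.92 at day 50 and 10.75 and 10.81 in Cdkn2a only cells. It fell by 1.97 (SE 0.26, limma adjusted p = 0.000751) and kept its call in all 17 alternatives. Ccnd1, cyclin D1 and an ERK target, read 9.25 and 9.29 in arrested and 8.96 and 9.38 in growing Cdkn2a/Braf cells, where the arrays overlap, and stood at 7.52 and 7.98 in Cdkn2a only cells. Its difference was 0.11 (SE 0.18, limma adjusted p = 0.655). E2f6, a repressive E2F, fell by 1.64 (SE 0.21), and Mycn rose by 0.87 (SE 0.16). Leaving out day 19 replicate 1 left 2 of the 26 genes lower, and leaving out day 19 replicate 2 left 3.

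Few of the inhibitors and marks of arrest that were measured passed the test in either direction. Cdkn1a, a CDK inhibitor that is also on the p53 target list, was not measured here. Bax and Trp53 of the p53 target list were not measured either. Of 7 CDK inhibitors measured 0 rose and Cdkn2c fell by 0.73 (SE 0.23, limma adjusted p = 0.0395), a call that ended when any of the 4 arrays was left out. Cdkn1b, which encodes p27, read 10.50 and 10.35 at day 19 and 10.80 and 10.78 at day 50, higher without overlap but not past the test (0.36, SE 0.21, limma adjusted p = 0.207). Cdkn2b read 7.27 and 7.42 against 7.39 and 7.21 (-0.04, SE 0.19, limma adjusted p = 0.865), both above the 6.52 and 6.02 of Cdkn2a only cells. Glb1, the lysosomal galactosidase behind the senescence stain, fell by 2.08 (SE 0.29), from 7.83 and 8.99 to 6.40 and 6.26. Of 27 genes of the senescence secretome 2 rose and 1 fell, of 24 p53 targets 1 rose and 3 fell, and of 22 lamina and chromatin genes 0 rose and 3 fell. These are 7.41%, 4.17% and 0% higher and 3.7%, 12.5% and 13.6% lower. For the 7 CDK inhibitors the shares are 0% and 14.3%. All are near or below the 11.1% higher and 14.5% lower of all genes, so the counts do not set these lists apart. Of the lamina genes in the brightest band 13.3% fell, below its 42.2%. Without day 50 replicate 1 the lamina list had 7 lower genes and without day 50 replicate 2 it had 6. Without day 19 replicate 1 the secretome had 0 higher and 2 lower genes, and the p53 list 0 and 1. Without day 19 replicate 2 they had 3 and 0, and 1 and 1. Lmnb1, the lamin that senescent cells are known to lose, read 8.11 and 6.19 on the 2 day 50 arrays, which span the day 19 values of 7.57 and 7.36.

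ERK feedback genes were split. Of 24 feedback and ETS output genes 6 fell (25% against 14.5% of all genes) and 1 rose. Dusp4, an ERK phosphatase, read 9.21 and 9.24 at day 19, 6.24 and 7.86 at day 50 and 8.36 and 8.14 in Cdkn2a only cells. It fell by 2.18 (SE 0.40, limma adjusted p = 0.00459). Spry2, a feedback inhibitor of receptor signalling, went from 8.49 and 8.65 to 7.42 and 7.84, where Cdkn2a only cells had 7.71 and 7.72. It fell by 0.94 (SE 0.19, limma adjusted p = 0.00817), a call that ended without day 19 replicate 2. Dusp6 was at 9.61 and 9.66 against 8.05 and 9.08, and its call (-1.07, SE 0.30, limma adjusted p = 0.0291) ended without either day 19 array and without day 50 replicate 1. Etv5, an ETS factor, stood far apart on the day 50 arrays, at 9.22 and 5.51, against 10.37 and 10.56 at day 19. Its call (-3.10, SE 0.85, limma adjusted p = 0.0268) ended without either day 19 array. The list had 2 lower genes without day 19 replicate 1 and 1 without day 19 replicate 2. Braf itself fell by 0.72 (SE 0.13, limma adjusted p = 0.00328), from 8.78 and 8.85 to 8.20 and 7.99. Cdkn2a read 6.27 and 6.39 against 6.75 and 6.42, a difference of 0.26 (SE 0.16, limma adjusted p = 0.231). The sources used here do not place the probes of either gene relative to the altered part of its allele, so these levels do not check the genotype.

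Melanocyte genes fell unevenly. Of 10 melanin and melanosome matrix genes 7 fell, of 21 melanosome transport genes 12 fell, and of 16 lineage factors and receptors 10 fell and 1 rose. Most lie in the brightest band. There, 70% of the melanin list, 62.5% of the transport list and 71.4% of the factor and receptor list fell, beside 42.2% of the band. Tyr, the first enzyme of melanin synthesis, read 11.91 and 11.66 at day 19 and 7.40 and 9.90 at day 50, and fell by 3.14 (SE 0.59, limma adjusted p = 0.0048). Tyrp1 read 13.21 and 13.15 against 12.71 and 12.92 and Mlana, a melanosome protein, 13.24 and 13.19 against 12.53 and 12.90, both lower without overlap. Neither passed, at -0.36 (SE 0.20, limma adjusted p = 0.185) and -0.50 (SE 0.19, limma adjusted p = 0.0794), though Mlana passed without day 50 replicate 2. Pmel, the fibril protein of melanosomes, fell by 0.97 (SE 0.22), a call that ended without day 19 replicate 1. The direction of these very bright genes depended on scaling: with arrays set to a common interquartile range, Tyrp1 was 1.49, Dct 1.45, Mlana 1.34 and Pmel 0.56 higher.

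Among the regulators of the lineage, Irf4, which cooperates with MITF at the tyrosinase gene, went from 8.90 and 8.59 to 4.93 and 6.20 and fell by 3.18 (SE 0.39). Lef1, the WNT-responsive factor, went from 9.57 and 9.78 to 7.12 and 6.74. It fell by 2.75 (SE 0.36, limma adjusted p = 0.000716) in all 17 alternatives. Ednrb, the endothelin receptor that melanoblasts need, fell by 1.55 (SE 0.14), from 12.44 and 12.39 to 10.95 and 10.78. Sox10, the neural crest factor that sustains the lineage, was at 8.94 and 8.70 against 9.18 and 8.30, with a difference of -0.08 (SE 0.36, limma adjusted p = 0.871). Mitf fell by 0.52 (SE 0.17, limma adjusted p = 0.0468), a call lost when any of the 4 arrays was left out and a direction that turned to 0.51 higher with a common interquartile range. Of the transport genes, Hps3, a subunit of a complex that builds melanosomes, fell by 1.31 (SE 0.14) with day 50 arrays at 8.08 and 8.07. The counts lower for the melanin, transport and factor lists were 5, 4 and 5 without day 19 replicate 1, and without day 19 replicate 2 they were 6, 7 and 6.

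**Figure D4:**
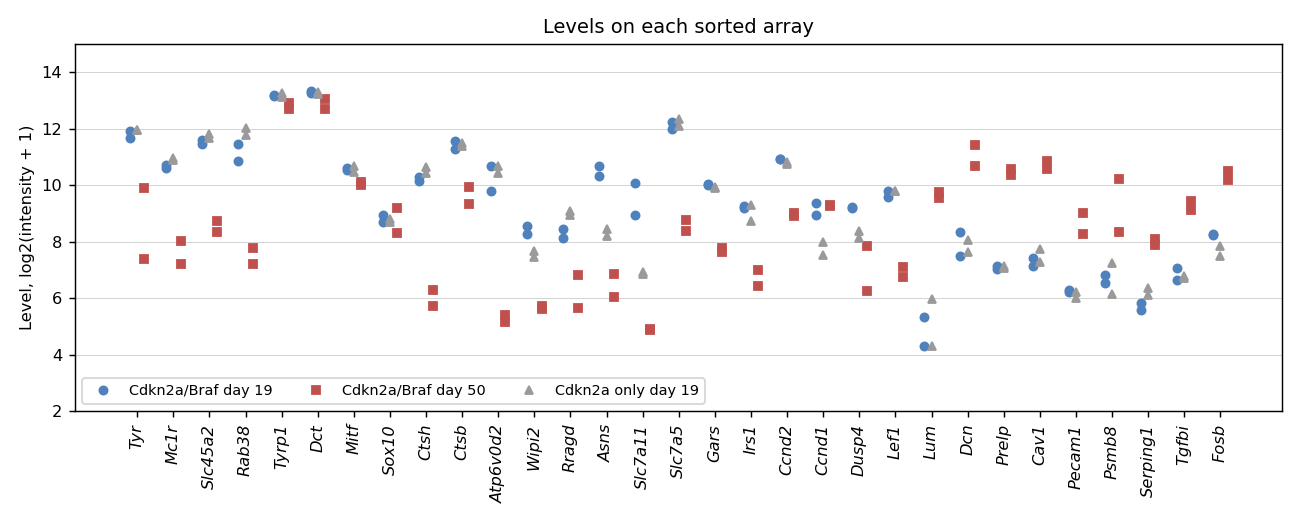
Level, log2(intensity + 1), of 31 genes on each of the 6 sorted arrays, with 2 points per group. Slc7a11, Asns and Atp6v0d2 on the day 50 arrays lie below both day 19 groups, and Lum, Cav1 and Tgfbi lie above both.

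Lysosomal genes fell broadly. Of 34 hydrolases and membrane proteins 22 fell and 0 rose, with a median of -1.05. In the brightest band 21 of 26 fell, 80.8% against 42.2% of the band. The list had 15 lower genes without day 19 replicate 1 and 16 without day 19 replicate 2. Ctsh, an aminopeptidase cathepsin, read 10.30 and 10.15 at day 19, 5.73 and 6.30 at day 50 and 10.64 and 10.42 in Cdkn2a only cells. It fell by 4.21 (SE 0.22, limma adjusted p = 1.14e-05). Lgmn, the asparaginyl endopeptidase legumain, fell by 2.70 (SE 0.18) and Hexa, a hexosaminidase subunit, fell by 1.55 (SE 0.19). All 3 kept their call in the 17 alternatives. Of 23 subunits of the V-ATPase, the proton pump that acidifies lysosomes and melanosomes, 13 fell and 0 rose. Atp6v0d2 went from 10.68 and 9.81 to 5.39 and 5.17, a fall of 4.96 (SE 0.30, limma adjusted p = 1.22e-05). Atp6ap2, an accessory subunit, fell by 2.07 (SE 0.19) and Atp6v0d1, the other d subunit, fell by 2.12 (SE 0.38). All 13 lie in the brightest band, where 81.2% of the 16 subunits fell. With a common interquartile range 14 lysosomal genes and 5 V-ATPase subunits were lower, while 4 and 2 were higher.

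Of 37 autophagy and TFEB family genes 16 fell and 1 rose, 43.2% lower against 14.5% of all genes. Of its 19 members in the brightest band 57.9% fell against 42.2%. Wipi2, which recruits the conjugation machinery to forming autophagosomes, read 8.26 and 8.54 against 5.71 and 5.60 and fell by 2.74 (SE 0.15, limma adjusted p = 1.14e-05). Atg4a, a protease that processes autophagosome proteins, had the largest fall of all genes that met the naming rule (-6.01, SE 0.95), but its day 50 arrays stood far apart at 2.89 and 6.41. Atg4c of the same family fell by 1.52 (SE 0.16) with day 50 arrays at 5.80 and 5.70. Of the factors that drive lysosomal genes, Tfeb and Tfe3 did not pass the test. Tfec of the same family rose by 0.55, a call that ended without either day 19 array and without day 50 replicate 1. Tfeb read 7.03 and 6.82 against 6.79 and 6.95 (-0.05, SE 0.16, limma adjusted p = 0.793) and Tfe3 6.57 and 6.31 against 6.64 and 6.07 (-0.08, SE 0.19, limma adjusted p = 0.748). The autophagy count was 8 lower without day 19 replicate 1 and 11 without day 19 replicate 2.

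Several genes that place mTORC1 on the lysosome were lower. Of 31 genes of mTORC1, TSC and the Rag GTPases 11 fell and 2 rose. Those that rose were Lamtor4 (0.80) and Akt1s1 (0.61), and neither kept its call without each of the 4 arrays. The Rag GTPases tether mTORC1 to the lysosome when amino acids are present. Rragc went from 8.78 and 8.51 to 7.22 and 6.61 and fell by 1.73 (SE 0.23, limma adjusted p = 0.000705). Rragd went from 8.13 and 8.44 to 6.80 and 5.64 and fell by 2.06 (SE 0.39). Rheb, the GTPase that switches the kinase on, fell by 1.24 (SE 0.20), and Mtor itself fell by 0.78 (SE 0.15), from 8.01 and 8.04 to 7.18 and 7.31. Tbc1d7, a subunit of the TSC complex that restrains mTORC1, also fell (-1.81, SE 0.33), as did Fnip2, a partner of folliculin (-1.66, SE 0.19). In the brightest band 5 of 15 list genes fell, 33.3% against 42.2%. The list had 7 lower genes without either day 19 array and 15 without day 50 replicate 2. Stk11, which encodes Lkb1, read 8.86 and 9.27 against 9.17 and 7.66 and differed by -0.65 (SE 0.39, limma adjusted p = 0.212), with a call without day 50 replicate 1 only.

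Some of the strongest falls were in amino acid uptake and synthesis. Of 30 amino acid transporters 11 fell and 1 rose, and of 28 ATF4 target and amino acid synthesis genes 9 fell and 0 rose, with list medians of -0.26 and 0.06. These are 36.7% and 32.1% lower, against 14.5% of all genes. Slc7a11, the cystine importer, read 8.94 and 10.06 at day 19, 4.88 and 4.91 at day 50 and 6.87 and 6.92 in Cdkn2a only cells. It fell by 4.61 (SE 0.52, limma adjusted p = 0.000296). Asns, asparagine synthetase, had the same order, from 10.68 and 10.33 to 6.84 and 6.05, with Cdkn2a only cells between at 8.47 and 8.19, and fell by 4.06 (SE 0.27, limma adjusted p = 1.96e-05). For the leucine importer Slc7a5 the 2 day 19 genotypes were alike, at 12.24 and 11.99 and at 12.33 and 12.09, and day 50 stood at 8.37 and 8.75 (-3.55, SE 0.22). Its partner Slc3a2 fell by 1.65 (SE 0.25). Atf4, the factor that induces such genes when amino acids run short, read 9.29 and 9.22 against 9.03 and 8.82, a difference of -0.34 (SE 0.14, limma adjusted p = 0.0927). Mthfd1l of mitochondrial folate metabolism fell by 2.44 (SE 0.16) and Got1, aspartate aminotransferase, fell by 3.08 (SE 0.38). The transporter and ATF4 lists had 7 and 5 lower genes without day 19 replicate 1, and without day 19 replicate 2 they had 7 and 4. Without day 50 replicate 2, 6 transporters rose.

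The promoters of strongly falling genes are shown as the 250 bases before the RefSeq gene start (GRCm38.p6), in gene orientation. They were searched on both strands for 2 E-boxes, CATGTG and CACGTG, which MITF and TFEB family factors are known to bind, and for the ATF4 element TGATGNAA. Shown are the 6 largest decreases among named genes that hold a match, with each match in capitals. Where 2 matches overlap, as in Asns, the capitals run on.
B3galt5 (chr16:96273263-96273512, + strand): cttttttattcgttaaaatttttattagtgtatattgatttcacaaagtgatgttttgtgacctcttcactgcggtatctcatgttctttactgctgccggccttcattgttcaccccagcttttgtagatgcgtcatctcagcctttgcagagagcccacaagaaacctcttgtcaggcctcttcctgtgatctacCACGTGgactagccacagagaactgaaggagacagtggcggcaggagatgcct
Slc7a11 (chr3:50443614-50443863, - strand): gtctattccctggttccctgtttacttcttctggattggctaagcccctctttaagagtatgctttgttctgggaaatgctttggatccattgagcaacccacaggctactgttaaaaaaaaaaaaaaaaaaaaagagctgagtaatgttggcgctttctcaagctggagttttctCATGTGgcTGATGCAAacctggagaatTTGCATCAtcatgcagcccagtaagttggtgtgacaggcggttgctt
Asns (chr6:7693210-7693459, - strand): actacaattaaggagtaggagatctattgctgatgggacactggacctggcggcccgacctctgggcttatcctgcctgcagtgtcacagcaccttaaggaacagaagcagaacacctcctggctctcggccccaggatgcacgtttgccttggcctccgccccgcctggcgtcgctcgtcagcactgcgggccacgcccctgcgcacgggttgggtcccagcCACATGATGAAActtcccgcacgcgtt
Slc24a4 (chr12:102128477-102128726, + strand): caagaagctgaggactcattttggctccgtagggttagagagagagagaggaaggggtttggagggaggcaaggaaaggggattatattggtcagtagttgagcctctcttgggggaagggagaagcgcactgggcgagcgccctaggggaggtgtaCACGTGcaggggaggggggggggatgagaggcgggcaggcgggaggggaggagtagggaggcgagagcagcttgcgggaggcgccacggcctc
Krtap6-1 (chr16:89031449-89031698, + strand): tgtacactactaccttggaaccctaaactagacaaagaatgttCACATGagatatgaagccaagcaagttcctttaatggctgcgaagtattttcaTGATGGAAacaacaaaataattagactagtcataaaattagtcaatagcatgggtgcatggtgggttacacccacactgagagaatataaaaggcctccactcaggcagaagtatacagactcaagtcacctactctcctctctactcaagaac
Tyr (chr7:87493513-87493762, - strand): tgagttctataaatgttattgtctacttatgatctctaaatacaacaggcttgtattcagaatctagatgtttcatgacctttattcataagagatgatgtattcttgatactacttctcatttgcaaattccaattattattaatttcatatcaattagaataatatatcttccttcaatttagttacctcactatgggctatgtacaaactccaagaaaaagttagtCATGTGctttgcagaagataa

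The Slc7a11 window holds 2 ATF4 elements, starting 66 and 47 bases before the gene start, and an E-box at 74. The Asns window holds 1 at 23, and an E-box at 27. B3galt5, a galactosyltransferase that builds cell surface glycans, fell most of these genes, from 10.32 and 9.93 to 4.81 and 5.39 (-5.02, SE 0.28). The hair keratin-associated gene Krtap6-1 (-3.30, SE 0.36) also holds 1, at 154 bases. Across windows of all genes tested, 2.68% held the ATF4 element, 9.39% CATGTG and 6.99% CACGTG. Among genes called lower the shares were 1.91%, 7.27% and 9.48%, and among genes called higher 2.84%, 10.8% and 5.28%. At least 1 match of any kind stood in 17.7% of the windows of lower genes and 17.9% of those of higher genes. Promoter entries were found for 256 of the 323 named genes that fell, and a match is a description of letters only.

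Lists of protein synthesis and quality control differed in how many members fell. Of 21 genes of the cytosolic aminoacyl-tRNA synthetases, which charge tRNAs, 14 fell and 0 rose, with a median of -0.99, and in the brightest band 72.2% fell against 42.2%. Gars, the glycyl enzyme, went from 10.03 and 9.99 to 7.62 and 7.76 and fell by 2.32 (SE 0.22, limma adjusted p = 0.000124), a call kept in all 17 alternatives. Iars, the isoleucyl enzyme, fell by 2.86 (SE 0.34), with day 50 arrays at 7.93 and 6.81. Of 31 proteasome genes 21 fell and 1 rose, and all 31 lie in the brightest band, so 67.7% stands beside 42.2%. Psmd13, a subunit of the regulatory cap, fell by 1.69 (SE 0.17), from 9.25 and 9.13 to 7.69 and 7.31. Of 30 genes of ribosome biogenesis and RNA polymerase I 11 fell and 0 rose, among them Polr1c, shared by polymerases I and III (-1.66, SE 0.16). Of 26 genes of the unfolded protein response and folding in the endoplasmic reticulum 11 fell and 0 rose. Ern1, the stress sensor kinase, fell by 1.37 (SE 0.19) and Ero1a, an oxidase of disulfide formation, fell by 1.79 (SE 0.24). In the brightest band 45% of the ribosome biogenesis and 39.1% of the folding genes fell, near its 42.2%. Of 17 cytosolic ribosomal protein genes, all in the brightest band, 1 fell, 5.88% against its 42.2%.

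These counts depended on single arrays and on scaling. The synthetase, proteasome, biogenesis and folding lists had 8, 7, 7 and 5 lower genes without day 19 replicate 1, and without day 19 replicate 2 they had 10, 13, 7 and 9. With a common interquartile range they had 6, 1, 6 and 3 lower and 1, 4, 3 and 5 higher.

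Of 24 glycolysis and pentose phosphate genes 8 fell, of 24 genes of the TCA cycle and mitochondrial biogenesis 9 fell, of 30 oxidative phosphorylation genes 13 fell and of 20 nucleotide synthesis genes 9 fell, and 0 rose in any of them. These are 33.3%, 37.5%, 43.3% and 45% of the lists, against 14.5% of all genes. In the brightest band 53.8%, 53.3%, 44.8% and 72.7% fell, against its 42.2%. Hk2, the inducible hexokinase, read 8.43 and 8.25 against 6.03 and 5.66 and fell by 2.50 (SE 0.25, limma adjusted p = 0.000168). Pdha1, the catalytic subunit of pyruvate dehydrogenase, went from 9.66 and 9.81 to 7.93 and 8.21 and fell by 1.66 (SE 0.16). Ogdh of the TCA cycle fell by 1.84 (SE 0.21), and Atic, which completes purine synthesis, fell by 2.17 (SE 0.21). These 4 kept their call in all 17 alternatives. Of 26 NRF2 and glutathione genes 10 fell and 1 rose, and 50% fell in the brightest band. Besides Slc7a11 these held Gsta4, a glutathione transferase (-2.58, SE 0.35), and Gclm, the modifier subunit of the enzyme that starts glutathione synthesis (-1.13, SE 0.20). With a common interquartile range 9 oxidative phosphorylation genes were higher and 1 lower. Without day 19 replicate 1 the glycolysis, TCA, oxidative phosphorylation, nucleotide and NRF2 lists had 7, 7, 4, 4 and 5 lower genes, and without day 19 replicate 2 they had 4, 7, 7, 5 and 7.

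Of 28 IGF, PI3K and AKT genes 12 fell and 1 rose, 42.9% lower. Irs1, the adaptor of the insulin and IGF receptors, went from 9.18 and 9.25 to 6.45 and 6.99 and fell by 2.50 (SE 0.29, limma adjusted p = 0.000344). Insr, the insulin receptor, fell by 1.97 (SE 0.26), Pdpk1, the kinase that activates AKT, fell by 1.66 (SE 0.21) and Akt2 fell by 1.90 (SE 0.26). Phlpp1, a phosphatase that turns AKT off, also fell by 1.58 (SE 0.16), from 8.62 and 8.68 to 6.94 and 7.20. Of the members in the brightest band 61.1% fell against 42.2%. Of 28 WNT genes 4 fell and 5 rose, and 14.3% lower is near the 14.5% of all genes. Nkd1, a feedback inhibitor induced by WNT signals, went from 10.24 and 9.87 to 7.47 and 7.42 and fell by 2.60 (SE 0.26), and Lrp6, the co-receptor, fell by 1.95 (SE 0.16). Sfrp1, a secreted WNT antagonist that fibroblasts also make, rose by 1.25 (SE 0.20). Of 28 TGF-beta and BMP genes 8 fell (28.6%) and 2 rose, with Bmp7, a ligand, at -2.09 (SE 0.25) and Tgfbi, a TGF-beta-induced matrix protein, at 2.44 (SE 0.20). In the NOTCH list Jag1, a ligand, rose by 1.40 (SE 0.26) and Hey1, a target, fell by 1.55 (SE 0.28), with 2 of 21 genes called in each direction, 9.52%, below the share of all genes in both. Without either day 19 array 8 IGF genes and 3 WNT genes were lower. The TGF-beta list then had 4 lower without day 19 replicate 1 and 5 without replicate 2, and rising WNT genes numbered 1 and 2.

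Matrix genes rose at day 50. Of 28 collagen genes 11 rose and 0 fell, 39.3% higher against 11.1% of all genes. Col12a1, a fibril-associated collagen, read 6.17 and 7.01 at day 19 and 9.09 and 9.77 at day 50 (2.84 higher, SE 0.39, limma adjusted p = 0.000939). Lum, a collagen-binding proteoglycan, read 5.32 and 4.31 against 9.75 and 9.55 and rose by 4.83 (SE 0.52, limma adjusted p = 0.000247). Prelp, a related proteoglycan, went from 7.14 and 7.03 to 10.36 and 10.57 and rose by 3.38 (SE 0.20). Other increases kept in all 17 alternatives were Pcolce2, an enhancer of procollagen processing (3.18, SE 0.31), Ecm2, a matrix protein (2.48, SE 0.48), and Rcn3, a calcium-binding protein of the secretory pathway (2.82, SE 0.21). Cav1, the caveolar coat protein, read 7.14 and 7.42 against 10.57 and 10.87 and rose by 3.44 (SE 0.20, limma adjusted p = 1.14e-05). Pecam1, an adhesion molecule of endothelium, rose by 2.36 (SE 0.23), with day 50 replicate 2 at 8.26. The means of the fibroblast and endothelial markers given above were higher on the same arrays, and their part in these increases was not tested. The collagen, fibroblast and endothelial lists had 4, 7 and 4 higher genes without day 19 replicate 1, without day 19 replicate 2 they had 6, 10 and 3, and without day 50 replicate 1 they had 6, 9 and 5. The keratinocyte list had 2, 1 and 2 in that order.

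Immune-related lists rose in part. Of 10 genes of MHC class I and the immunoproteasome 6 rose, of 24 type I interferon genes 8 rose and of 16 complement genes 5 rose, with 0 lower in each. These are 60%, 33.3% and 31.2% of the lists, against 11.1% of all genes. That 11.1% is a low reference for complement. Its median level in Cdkn2a only cells, 5.45, lies in the second dimmest band, where 17.998% of the genes rose. The interferon and MHC medians, 6.34 and 6.96, lie in the band above, where 9.89% rose, the interferon median near its lower edge of 6.32. The increases of these lists were not compared band by band. Psmb8, an immunoproteasome subunit, read 6.55 and 6.83 at day 19 and 10.24 and 8.36 at day 50 and rose by 2.61 (SE 0.50, limma adjusted p = 0.00549). Serping1, the C1 inhibitor, went from 5.59 and 5.84 to 8.08 and 7.87 and rose by 2.26 (SE 0.20). C4b, a complement component, rose by 1.41 (SE 0.21). Xaf1, an interferon-induced gene, rose by 0.88 (SE 0.17), and Iigp1, an interferon-induced GTPase, stood at 8.79 and 6.18 against 4.53 and 4.96, a call (2.74, SE 0.68) that ended without either day 19 array. Mean levels of immune cell markers were 6.02 and 5.96 against 5.49 and 6.66 for 14 macrophage and dendritic markers and 5.94 and 5.84 against 5.32 and 5.68 for 12 T and NK cell markers. Without day 19 replicate 1 the MHC, interferon and complement counts were 3, 3 and 3, without day 19 replicate 2 they were 3, 4 and 4, and without day 50 replicate 1 they were 5, 5 and 4.

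Of 23 AP-1 and immediate early genes 8 rose and 1 fell, 34.8% higher against 11.1% of all genes. Fosb, an AP-1 subunit, read 8.27 and 8.23 at day 19, 10.17 and 10.51 at day 50 and 7.86 and 7.48 in Cdkn2a only cells, and rose by 2.09 (SE 0.42, limma adjusted p = 0.00694) in all 17 alternatives. Atf3, a stress-induced factor, rose by 2.35 (SE 0.26), Ier2 by 1.31 (SE 0.26) and Jun by 0.92 (SE 0.17), while Nr4a3, a nuclear receptor of the same early class, fell by 1.44 (SE 0.27).

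**Figure D5:**
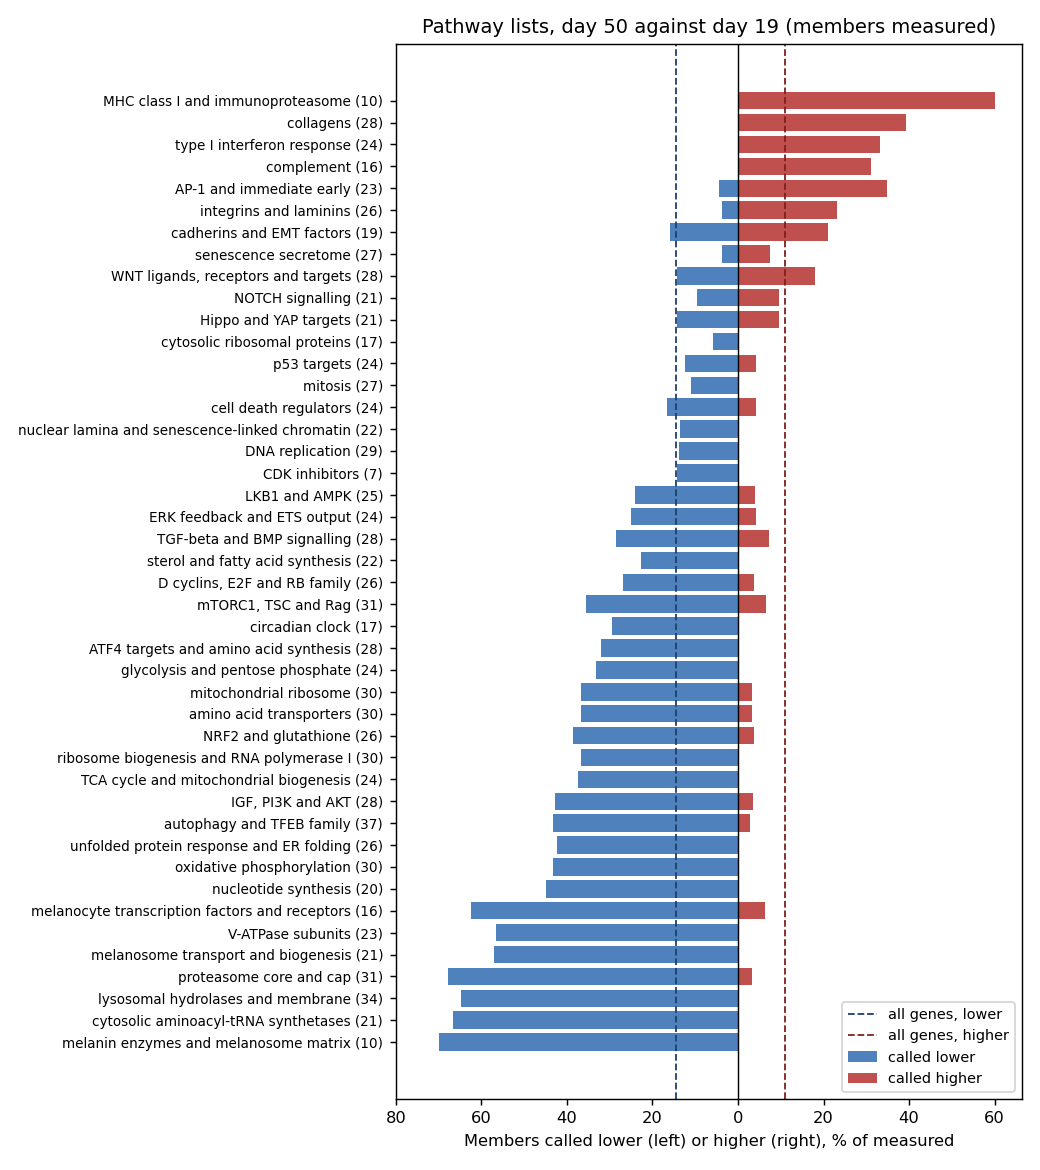
Percent of measured members of 44 pathway lists called lower (left) or higher (right) at day 50, with the number measured in brackets. Dashed lines mark all genes, 14.5% lower and 11.1% higher. The melanin (70%), proteasome (67.7%), synthetase (66.7%) and lysosome (64.7%) lists reach furthest left, and MHC class I, collagens and immediate early genes furthest right.

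The largest falls that kept their call in all 17 alternatives included genes outside these lists. Plod2, a lysyl hydroxylase of collagen, read 9.56 and 10.02 at day 19 and 5.17 and 4.96 at day 50. It fell by 4.73 (SE 0.17, limma adjusted p = 1.75e-06). Npy, a neuropeptide, went from 11.65 and 11.58 to 7.07 and 6.96. It fell by 4.60 (SE 0.27). Cthrc1, a secreted modulator of collagen and WNT signalling, went from 10.29 and 10.51 to 6.30 and 6.44. It fell by 4.03 (SE 0.32). Both day 19 genotypes had high Npy and Cthrc1, at 12.06 and 12.17 and at 10.90 and 10.87 in Cdkn2a only cells. Pla2g7, a phospholipase that inactivates platelet-activating factor, was different: 9.98 and 10.28 in growing Cdkn2a/Braf cells, 6.05 and 5.52 in arrested cells and 5.81 and 6.51 in Cdkn2a only cells. It fell by 4.34 (SE 0.37, limma adjusted p = 7.49e-05) to a level that overlaps that of Cdkn2a only cells. Slc24a4, a sodium, potassium and calcium exchanger linked to pigmentation, read 9.96 and 9.13 against 5.64 and 5.70, with 11.03 and 10.99 in Cdkn2a only cells, and fell by 3.88 (SE 0.27). Of the 198 core decreases 170 lie in the brightest band, and of the 21 core increases 2 do. Among increases kept in all 17 alternatives, Akr1c18, a steroid dehydrogenase, came after Lum, from 4.43 and 5.34 to 9.57 and 8.98 (4.39, SE 0.55), followed by Ly6e, a surface protein induced by interferon, from 7.05 and 6.46 to 10.68 and 10.19 (3.68, SE 0.23).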

How the data were processed

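RNA of 13 samples in 6 groups was amplified with NuGEN Ovation reagents and hybridised to Affymetrix arrays, per the labels' protocols. The deposited values are 1 intensity per probe set on a linear scale, processed with RMA per the submitters' processing notes; background, summary and filter settings are not given in the sources used here. Of 34760 probe sets, 21640 name 1 gene in the platform annotation, 1321 name several and were left out, and 11799 are unnamed here. Where a gene had several probe sets (954 genes), the one with the highest mean level was kept, and their mean was an alternative. For the 19937 genes log2(intensity + 1) was fitted with limma 3.58.1 in R 4.3.3 over all 13 arrays as 6 group means (7 residual degrees of freedom), with Benjamini-Hochberg adjustment at 0.05 and no block. The fit was first tested on simulated data in which every group had the same spread. It called 53.7%, 85.1% and 97% of the genes given a log2 change of 1, 2 and 3, and 4.85% of its calls were false. With equal spread, the simulation did not check the wider spread of the day 50 arrays. The labels call the arrays biological replicates; with 2 per group their number limits the precision. Named genes were the largest changes with adjusted p under 0.05, a difference of at least 1 and no overlap, those kept under every alternative, and list members. Members and lists were chosen with earlier results of these data known. The 17 alternatives changed scaling, probe sets, filters, moderation, weights, the arrays fitted, the pseudocount (16) and 1 array at a time. Promoter windows came from RefSeq, GRCm38.p6.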

Additional observations from a re-analysis of the deposited data

How the results depend on the processing

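Against 2211 genes higher and 2884 lower, quantile normalization gave 1465 and 1601, cyclic loess 1165 and 1582, array weights 425 and 1838, the 6 sorted arrays 349 and 1153, and the 4 compared arrays 39 and 251. Median centring left 1034 higher, keeping only the brighter genes (mean level above the median of all) 695, and keeping those past log2 of 6 in 2 of the 4 arrays 1364. Leaving out 1 array gave 363 to 2483 higher and 1472 to 3352 lower. Same-numbered arrays of day 19 and day 50 did not deviate together (r = -0.046 across genes). With 2 arrays per group this cannot show whether same-numbered arrays were paired. The fit with the replicate block on the 6 sorted arrays gave 72 higher and 459 lower. With a common interquartile range the differences of Dct (1.45), Mitf (0.51), Mlana (1.34), Pmel (0.56) and Tyrp1 (1.49) turned positive. The causes of these shifts were not tested. The fits of fewer arrays have fewer residual degrees of freedom, but the fit with array weights kept the 7 of the reported fit. With 2 arrays per group, signal near background limits dim genes most.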
